A study of Mus musculus with 31 samples.

Results

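The enzymes that carry glucose 6-phosphate down to pyruvate, and those that act on pyruvate next, were compared in livers lacking ChREBPβ or both isoforms of ChREBP. The genes were chosen by name and were Gpi1, Pfkl, Pfkfb1, Tpi1, Gapdh, Pgk1, Eno1, Pklr, Ldha and Pdha1. On the array these 10 genes had 30 probes, of which 29 passed the filter on dim spots, out of 36059 probes and 23968 gene names tested. The probe that did not pass, the third probe of Pfkl, met the detection conditions on 1 array. Where 1 value stands for a gene, it is that of its first probe, which is the probe of highest mean signal. The question asked of the data was at which of these steps transcript levels differed when ChREBP was missing.

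The livers came from 31 male C57BL6/J mice, each hybridized to an array of its own. ChREBPβ-deficient mice (ChREBPbeta_KO, 8 mice) carried a CRISPR/Cas9 deletion of Mlxipl exon 1b, the exon specific to ChREBPβ, and were compared with 8 WT littermates (ChREBPbeta_WT). Total ChREBP-KO mice (ChREBPtotal_KO, 7 mice, replicates 1, 2 and 4 to 8) were Mlxipl-null and lacked ChREBPα and ChREBPβ, and were compared with 8 WT littermates of their own line (ChREBPtotal_WT). All 4 groups were on a regular diet, went without food for 24 hours and were then given food, and water with 20% glucose, for 18 hours. Both deletions are present in every tissue, so a difference in the liver need not arise there. The ages of these mice, and which of the lines derived for ChREBPβ deficiency they belong to, are not given in the sources used here. Replicate 3 of the total ChREBP-KO mice was not analysed here.

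In glycolysis, glucose is phosphorylated, split into 3-carbon sugars and oxidized to phosphoenolpyruvate, from which pyruvate kinase makes pyruvate. Pyruvate is then reduced to lactate, or enters mitochondria, where pyruvate dehydrogenase turns it into acetyl-CoA. The liver does this mainly after meals, when it feeds fat synthesis, and reverses most of the steps in gluconeogenesis during a fast. ChREBP is a transcription factor that responds to glucose metabolites. It binds carbohydrate response elements, in which a pair of E-box-like hexamers is set apart by a short spacer, and Pklr is a textbook target.

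The promoters of Pklr, Gpi1 and Ldha are shown because they stand for different outcomes in the comparisons that follow. Pklr had the largest difference of the 10 genes in total ChREBP-KO mice, Gpi1 had the next largest, and neither probe of Ldha passed the test. Each sequence is the 250 bases before the transcription start in RefSeq (assembly GRCm38.p6), written 5′ to 3′ on the strand of the gene. The Pklr sequence lies at chr3:89136373-89136622 (plus strand), the Gpi1 sequence at chr7:34230337-34230586 (minus strand) and the Ldha sequence at chr7:46845554-46845803 (plus strand). Capitals mark a match to CACGNG, 5 bases of any kind and CNCGTG (Pklr), or to the E-box CACGTG (Ldha), and the Gpi1 sequence held neither.
Pklr: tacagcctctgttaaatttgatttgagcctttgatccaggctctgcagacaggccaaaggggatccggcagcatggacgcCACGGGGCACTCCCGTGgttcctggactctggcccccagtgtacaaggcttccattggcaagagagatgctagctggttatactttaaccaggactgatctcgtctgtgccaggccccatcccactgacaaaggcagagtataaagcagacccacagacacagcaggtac
Gpi1: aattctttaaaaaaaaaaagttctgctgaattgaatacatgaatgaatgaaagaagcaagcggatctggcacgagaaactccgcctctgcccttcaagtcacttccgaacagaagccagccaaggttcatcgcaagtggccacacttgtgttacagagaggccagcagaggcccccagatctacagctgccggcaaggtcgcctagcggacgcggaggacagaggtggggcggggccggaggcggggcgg
Ldha: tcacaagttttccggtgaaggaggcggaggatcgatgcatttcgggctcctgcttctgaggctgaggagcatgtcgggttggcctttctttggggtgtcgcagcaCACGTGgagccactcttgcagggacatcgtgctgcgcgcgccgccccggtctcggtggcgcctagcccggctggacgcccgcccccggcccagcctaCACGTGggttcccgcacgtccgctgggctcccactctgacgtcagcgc

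The longer motif was looked for on both strands in windows from 250 bases before to 50 bases after each start. It was present in 15 of 32851 windows (0.0457%), which belong to 14 genes, and among the 10 genes studied it was found for Pklr alone, in 1 of its 2 windows. That match, CACGGGGCACTCCCGTG, begins 170 bases before the start (chr3:89136453-89136469). The E-box was present in 2349 of the 32851 windows (7.15%), and a stretch that met both motifs would have been counted under both. Among the 10 genes it was found for Ldha alone, in 1 of its 2 windows, beginning 145 and 48 bases before the start. These are matches of letters in a short window and say nothing of whether ChREBP binds there, and most of each gene was not searched. Elements with other letters or another spacing were not looked for, so a gene without a match may still hold an element.

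The targeted gene was read first as a check of the labels. For Mlxipl the first probe was lower in every knockout mouse than in every WT littermate, by 0.45 log2 units in ChREBPβ-deficient mice (adjusted p = 0.0152) and by 1.16 in total ChREBP-KO mice (adjusted p = 8.05e-13), in limma with Benjamini-Hochberg adjustment over all probes. The probes of Mlxipl disagreed. A_55_P2728555 gave -0.46 (adjusted p = 0.909) and -0.59 (adjusted p = 0.00313), with groups that overlapped, and A_55_P2045158 gave -0.06 and -0.05 and was not called in either comparison (adjusted p = 0.9998 and 0.603). The first Mlxipl probe was the single probe of 36059 (0.00277%) called in ChREBPβ-deficient mice. In total ChREBP-KO mice 14.6% of probes were called lower and 14.5% higher, at an adjusted p under 0.05. Of 6 hepatocyte markers 2 were called higher in total ChREBP-KO mice, Ttr by 0.17 (adjusted p = 0.011) and Cps1 by 0.44 (adjusted p = 0.0157). The markers summed to a log2 signal between 20.23 and 20.41 on every array, but that sum is carried by transcripts at the top of the range, whose values quantile normalization holds nearly constant. The arrays were scanned on 2 days, and each day held arrays of all 4 groups. Values are log2 signals after quantile normalization, so that a difference of 1 is a 2-fold difference, and the number of arrays limits their precision. Nothing in the labels says whether mice of a group shared a litter or cage, and the study's methods say that each protocol drew on several litters. The p-values set a group difference against the spread between these mice and treat each mouse as independent.

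In total ChREBP-KO livers the steps of glycolysis did not move together. Transcripts of Pklr, Gpi1, Eno1 and Gapdh were lower in every knockout mouse than in every WT littermate, Pfkfb1 and Pdha1 were lower with some overlap, and the first probes of Pfkl, Tpi1, Pgk1 and Ldha did not pass the test. Of the 29 probes 19 were called lower, beside the 14.6% of all probes, and 0 were called higher, at an adjusted or at an unadjusted p under 0.05 in limma and by the Mann-Whitney test. For 15 of the 29 probes every knockout mouse lay below every WT littermate, a pattern found for 4.14% of all probes. The median difference of the 29 probes was -0.52, and that of all probes was 0.0083. Counted by first probes, 6 of the 10 genes were lower, beside 14.8% of all genes. The 10 genes were picked with results of these data known, so these counts describe them and are not independent evidence. In a whole-liver extract, fewer cells of a type and less RNA per cell cannot be told apart.

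**Figure D1:**
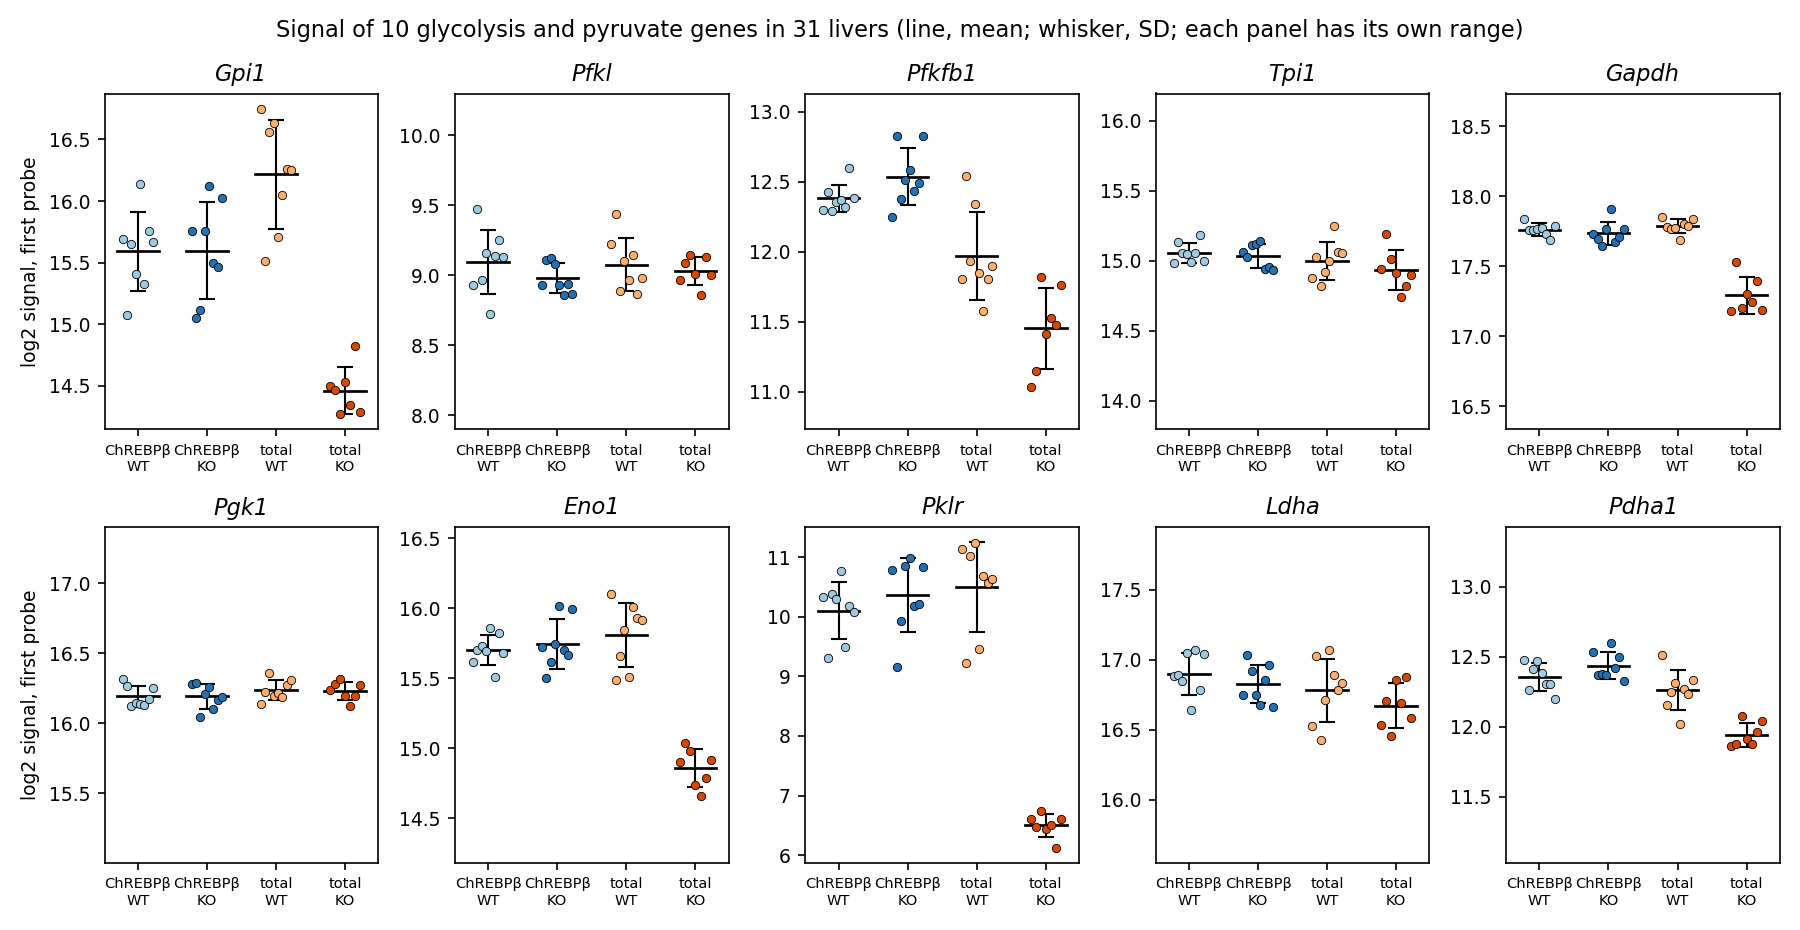
Log2 signal of the first probe of each of the 10 genes (y axis, a separate range per panel) in each of the 31 mice, by group (x axis). Each point is a mouse, the line is the group mean and the whisker its SD. Total ChREBP-KO mice lie apart from their WT littermates for Pklr, Gpi1, Gapdh and Eno1, and the groups overlap for Pfkl, Tpi1, Pgk1 and Ldha.

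Pyruvate kinase had the largest difference. Pklr encodes the liver and red cell form of the enzyme, which makes pyruvate and ATP from phosphoenolpyruvate, and had a single probe (A_51_P176042, chromosome 3, 88948907 to 88949425 on the plus strand of build mm9). In total ChREBP-KO mice the log2 signal was 6.61 in replicate 1, 6.48 in replicate 2, 6.74 in replicate 4, 6.43 in replicate 5, 6.51 in replicate 6, 6.13 in replicate 7 and 6.61 in replicate 8. In their WT littermates it ran from 9.22 to 11.23, with a median of 10.66. The highest knockout mouse thus lay well below the lowest WT mouse. The difference was -3.99 (SE 0.28, 95% confidence interval -4.55 to -3.43, limma adjusted p = 4.35e-12), which is 15.9-fold lower.

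The knockout mice were close to each other for Pklr, with an SD of 0.19 (n = 7), while the WT littermates varied more, with an SD of 0.76 (n = 8). Among those WT mice, replicates 2 and 5 were the lowest, at 9.22 and 9.45, and replicate 4 was the highest. The probe was well above background on all 31 arrays, and the scanner software found the spot on 4 of the 7 knockout arrays and on every array of the other groups. It therefore dropped out where detection on every array was required, and its value in the knockout rests on signals that are not subtracted for background. In ChREBPβ-deficient mice Pklr ran from 9.15 to 10.98 (median 10.50) and in their WT littermates from 9.30 to 10.76 (median 10.23). Those groups overlapped almost entirely, with a difference of 0.26 (95% confidence interval -0.28 to 0.81, limma unadjusted p = 0.327).

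At the hexose phosphate step, Gpi1 was lower. Gpi1 encodes glucose 6-phosphate isomerase, which interconverts glucose 6-phosphate and fructose 6-phosphate. The first probe (A_55_P2022434, chromosome 7, 34987178 to 34987237, minus strand, mm9) ran from 14.27 to 14.83 (median 14.46) in total ChREBP-KO mice and from 15.51 to 16.75 (median 16.26) in WT littermates. There was no overlap, and the difference was -1.75 (SE 0.17, limma adjusted p = 4.06e-09), or 3.37-fold lower. All 4 probes of the gene were called lower and none overlapped between the groups. The second probe shares 56 of its 60 bases with the first and gave a like value, -1.76, so the pair is not independent. The other probes lie toward the 5′ end of the transcript and gave larger differences, -1.90 for A_66_P122536 and -2.28 for A_55_P2744563 (adjusted p = 7.78e-10), the one farthest from the 3′ end.

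The first committed step gave smaller differences. Pfkl, the liver subunit of phosphofructokinase, which makes fructose 1,6-bisphosphate, read 8.86 to 9.14 (median 9.01) in total ChREBP-KO mice and 8.87 to 9.44 (median 9.04) in WT littermates at the first probe (A_51_P310896, chromosome 10, 77450926 to 77450985, minus strand). These ranges overlapped, and the difference was -0.05 (95% confidence interval -0.22 to 0.13, limma adjusted p = 0.721). The second Pfkl probe (A_55_P2934717), nearer the 5′ end, was called lower, with a difference of -0.46 (SE 0.17, adjusted p = 0.0473), although its groups overlapped and it met the detection conditions on 22 of the 31 arrays. The probes of Pfkl thus disagreed on the call. Pfkfb1, the liver form of the bifunctional enzyme that sets the level of fructose 2,6-bisphosphate, an activator of phosphofructokinase, was lower at both probes.

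For Pfkfb1 the first probe (A_55_P2002893, chromosome X, 147078320 to 147078379, plus strand) ran from 11.03 to 11.82 (median 11.48) in total ChREBP-KO mice and from 11.58 to 12.54 (median 11.87) in WT littermates. Of the 7 knockout mice 5 lay below every WT mouse. The difference was -0.52 (SE 0.12, limma adjusted p = 0.0014), and at the second probe it was -0.50 (adjusted p = 0.0027). The scan days differed for this gene. The difference was -0.81 (SE 0.18, adjusted p = 0.00747) among arrays of day 1 and -0.19 (SE 0.12, adjusted p = 0.351) among those of day 2, and the call was lost on the second day. The difference between the days was not tested.

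Among the 3-carbon steps, neighbouring enzymes differed in outcome. Tpi1, triosephosphate isomerase, which interconverts dihydroxyacetone phosphate and glyceraldehyde 3-phosphate, read 14.74 to 15.19 (median 14.91) in total ChREBP-KO mice and 14.82 to 15.25 (median 15.01) in WT littermates at the first probe (A_51_P433824, chromosome 6, 124760947 to 124761006, minus strand). The groups overlapped throughout. The difference was -0.07 (95% confidence interval -0.19 to 0.05, limma adjusted p = 0.432), and 0 of 4 probes were called, with differences from -0.07 to 0.05. Within scan days the Tpi1 difference was 0.11 on day 1 (adjusted p = 0.371) and -0.27 on day 2 (adjusted p = 0.0365), where it passed the test.

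Gapdh, which oxidizes glyceraldehyde 3-phosphate and is often taken as a reference transcript, was lower at every probe. The first probe (A_55_P2106424, chromosome 6, 125111858 to 125111865, minus strand) ran from 17.18 to 17.53 (median 17.25) in total ChREBP-KO mice and from 17.69 to 17.85 (median 17.79) in WT littermates. The groups did not overlap, and the difference was -0.49 (SE 0.047, limma adjusted p = 2.00e-09), or 1.41-fold lower. At this probe knockout mice varied more (SD 0.13, n = 7) than WT littermates (SD 0.051, n = 8). The other probes did not repeat this, with SDs in the knockout that were like those of WT littermates or smaller. At A_55_P1994258 they were 0.095 in the knockout and 0.148 in WT littermates. All 7 probes were called lower without overlap, with differences from -0.49 to -0.78. The mouse genome holds many processed copies of Gapdh, so the transcripts bound by these probes are uncertain. Pgk1, the next enzyme, which makes ATP from 1,3-bisphosphoglycerate, did not follow.

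The first probe of Pgk1 (A_55_P2745836, chromosome X, 103398915 to 103398974, plus strand) ran from 16.12 to 16.32 (median 16.24) in total ChREBP-KO mice and from 16.14 to 16.36 (median 16.22) in WT littermates. The ranges nearly coincided. The difference was -0.0073 (95% confidence interval -0.10 to 0.08, limma adjusted p = 0.928). A second probe, on the opposite strand of the same locus, gave -0.18 (adjusted p = 0.0938) at log2 signals of 5.94 to 6.63 over both groups. The sign of the first probe was not stable, at 0.03 on scan day 1 and -0.05 on day 2.

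Eno1, the enolase that makes phosphoenolpyruvate, the substrate of pyruvate kinase, was lower. The first probe (A_55_P1958097, chromosome 4, 149622928 to 149622987, plus strand) ran from 14.66 to 15.04 (median 14.90) in total ChREBP-KO mice and from 15.49 to 16.10 (median 15.88) in WT littermates. The groups did not overlap, and the difference was -0.95 (SE 0.087, limma adjusted p = 9.24e-10), or 1.93-fold lower. The other Eno1 probes lie toward the 5′ end and were also called without overlap, at -1.16 (adjusted p = 3.14e-09) and -1.96 (adjusted p = 3.37e-06). The latter read 7.04 to 7.94 in the knockout and 8.999 to 10.45 in WT littermates. As for Gpi1, the size of the difference depended on the probe, and Eno1 has near-identical copies that could bind the same probes.

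After pyruvate, the lactate and mitochondrial branches were read by Ldha and Pdha1. Ldha, the muscle-type subunit of lactate dehydrogenase, ran from 16.46 to 16.88 (median 16.69) in total ChREBP-KO mice and from 16.43 to 17.07 (median 16.81) in WT littermates at the first probe (A_55_P2012984, chromosome 7, 54110937 to 54110996, plus strand). The ranges overlapped, and the difference was -0.11 (95% confidence interval -0.29 to 0.07, limma adjusted p = 0.374). The second probe gave -0.18 (adjusted p = 0.288). Pdha1, the catalytic alpha subunit of pyruvate dehydrogenase, was lower at its first probe (A_55_P2835362, chromosome X, 156560573 to 156560632, minus strand), which ran from 11.87 to 12.08 (median 11.91) against 12.02 to 12.52 (median 12.26). Of the 7 knockout mice 5 lay below every WT mouse. The difference was -0.32 (SE 0.059, limma adjusted p = 1.15e-04), and the second probe missed the threshold at -0.23 (adjusted p = 0.0516).

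Within scan days the larger differences were of like size. On day 1 and day 2 they were -4.09 and -3.92 for Pklr, -1.92 and -1.58 for Gpi1, -0.86 and -1.05 for Eno1, and -0.49 and -0.50 for Gapdh, each past the threshold on both days. For Pdha1 they were -0.38 (adjusted p = 0.00683) and -0.25 (adjusted p = 0.0798), so the call was lost on day 2, with 3 knockout arrays. Pfkl gave -0.11 and 0.0043 and Ldha -0.03 and -0.18, none called.

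**Figure D2:**
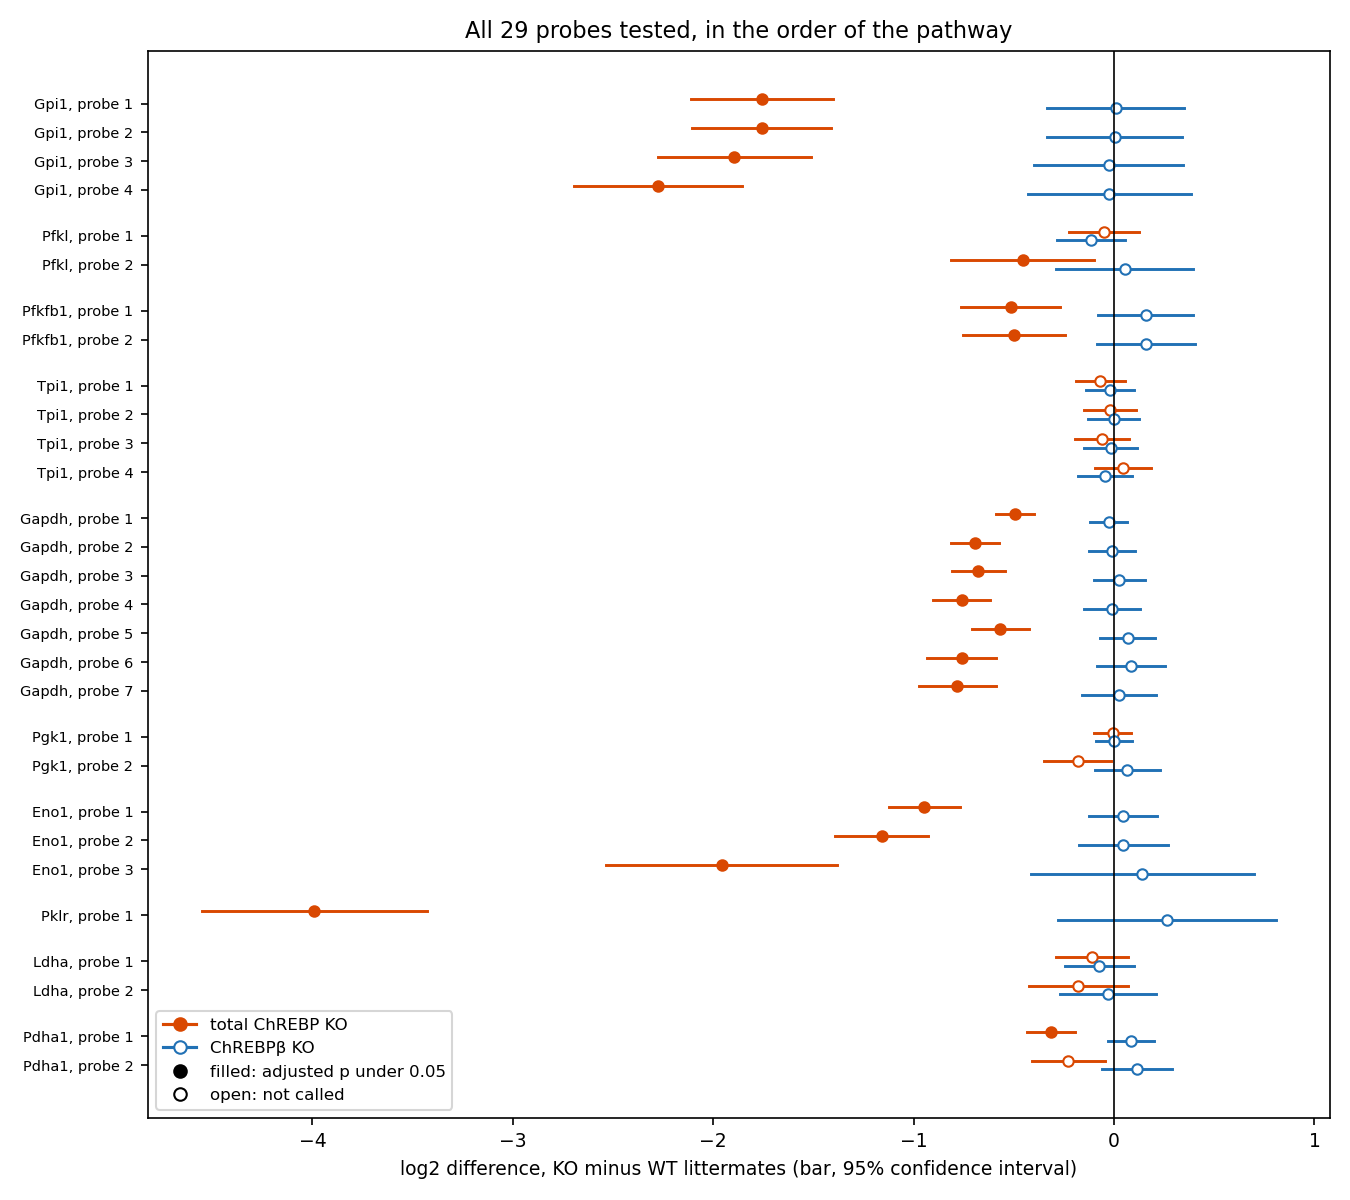
Log2 difference from WT littermates (x axis, with the 95% confidence interval) for each of the 29 probes tested, in the order of the pathway (y axis), in ChREBPβ-deficient and in total ChREBP-KO mice. In total ChREBP-KO mice the differences reach -3.99 for Pklr, whereas in ChREBPβ-deficient mice they lie between -0.12 and 0.26.

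In ChREBPβ-deficient livers no probe of the 10 genes was called. Limma called 0 of the 29 probes, where 1 probe in all passed (0.00277%). At an unadjusted p under 0.05 it also found 0 of 29, beside 4.98% of all probes, and the smallest unadjusted p among the 29 was 0.149, for Pdha1. The Mann-Whitney test, adjusted over all probes, called 0, but it could not have called any probe in this comparison. Its smallest exact p needs groups without overlap, and too few of all probes had such groups for that p to pass adjustment. That result therefore says nothing about the 10 genes. For 0 of 29 probes were the groups without overlap, a pattern present in 0.0222% of all probes. Differences of the 29 probes ran from -0.12 for Pfkl to 0.26 for Pklr, and 16 of them were above 0.

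The intervals say how large a difference could have gone unseen. For Gpi1 the difference was 0.0076 (95% confidence interval -0.33 to 0.35), with ChREBPβ-deficient mice from 15.05 to 16.12 (median 15.63) and WT littermates from 15.07 to 16.14 (median 15.66). For Eno1 it was 0.04 (-0.13 to 0.22), for Gapdh -0.03 (-0.12 to 0.07) and for Pgk1 -0.00017 (-0.09 to 0.09). For Tpi1 it was -0.02 (-0.14 to 0.10), for Pfkl -0.12 (-0.28 to 0.05) and for Ldha -0.07 (-0.25 to 0.10). Pfkfb1 and Pdha1 had positive values, 0.16 (-0.08 to 0.39) and 0.08 (-0.03 to 0.20). Every one of these intervals includes 0. The interval for Pklr, up to 0.81, is the widest of the first probes, and within scan days its difference changed sign, from -0.21 on day 1 to 0.58 on day 2, neither called.

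The effects of the deficiencies were compared with each other by the interaction in the same model. Of the 29 probes, 18 had a more negative difference in total ChREBP-KO than in ChREBPβ-deficient mice, beside 8.08% of all probes, and none had a more positive one at an adjusted p under 0.05. The first probes that passed were those of Pklr (-4.26, SE 0.38, limma adjusted p = 5.03e-09), Gpi1 (-1.76, SE 0.24), Eno1 (-0.99, SE 0.12), Pfkfb1 (-0.67, SE 0.17), Gapdh (-0.47, SE 0.066) and Pdha1 (-0.40, SE 0.082). For Pfkl, Tpi1, Pgk1 and Ldha the first probes did not pass. The interaction rests on WT groups of separate lines, so line and litter cannot be told apart from it.

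The WT littermates of the lines were therefore set against each other. Across the array, 17% of probes were called between them, and 6 of the 29 probes of the 10 genes. The 4 probes of Gpi1 were higher in WT mice of the total ChREBP-KO line, by 0.63 to 0.92, and the 2 probes of Pfkfb1 were lower there, by -0.41 and -0.37. For the first Gpi1 probe 5 of 8 ChREBPtotal_WT mice lay above every ChREBPbeta_WT mouse (adjusted p = 0.00974). With slide as a fixed block 0 of the 29 probes were called between the WT groups, and the Mann-Whitney test called 1. The 31 arrays lay on 15 slides, so that block leaves few arrays per slide to compare. The share of all probes called under either setting was not counted, and whether slide plays a part was not tested. Gpi1 in total ChREBP-KO mice (14.27 to 14.83) was also below every ChREBPbeta_WT mouse (15.07 to 16.14). Pklr did not pass between the WT groups, at 0.39 (adjusted p = 0.333).

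The rest of the pathway was read from 52 genes in lists by step, of which the 10 genes are part. In total ChREBP-KO mice 14 of 52 first probes were lower, beside 14.8% of all genes, and 9 were higher, beside 14.4%. The median difference over the 52 genes was -0.02 and that over all genes was 0.0078. Without the 10 genes, 8 of the remaining 42 were lower and 9 were higher, with a median difference of 0.06. In ChREBPβ-deficient mice 0 of 52 were called by limma, beside 0.00417% of all genes, and 7 had an unadjusted p under 0.05, beside 5.06% of all genes. None of the 7 is among the 10 genes. They were Slc16a7 (0.29), Gpt (0.22), Gpt2 (0.18), Mpc1 (0.16), Gckr (0.15), Mpc2 (0.11) and Pdk3 (-0.24), and none passed after adjustment. Between the WT groups of the lines 12 of the 52 genes were called, 5 higher and 7 lower in the total ChREBP-KO line, beside 17.1% of all genes.

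**Figure D3:**
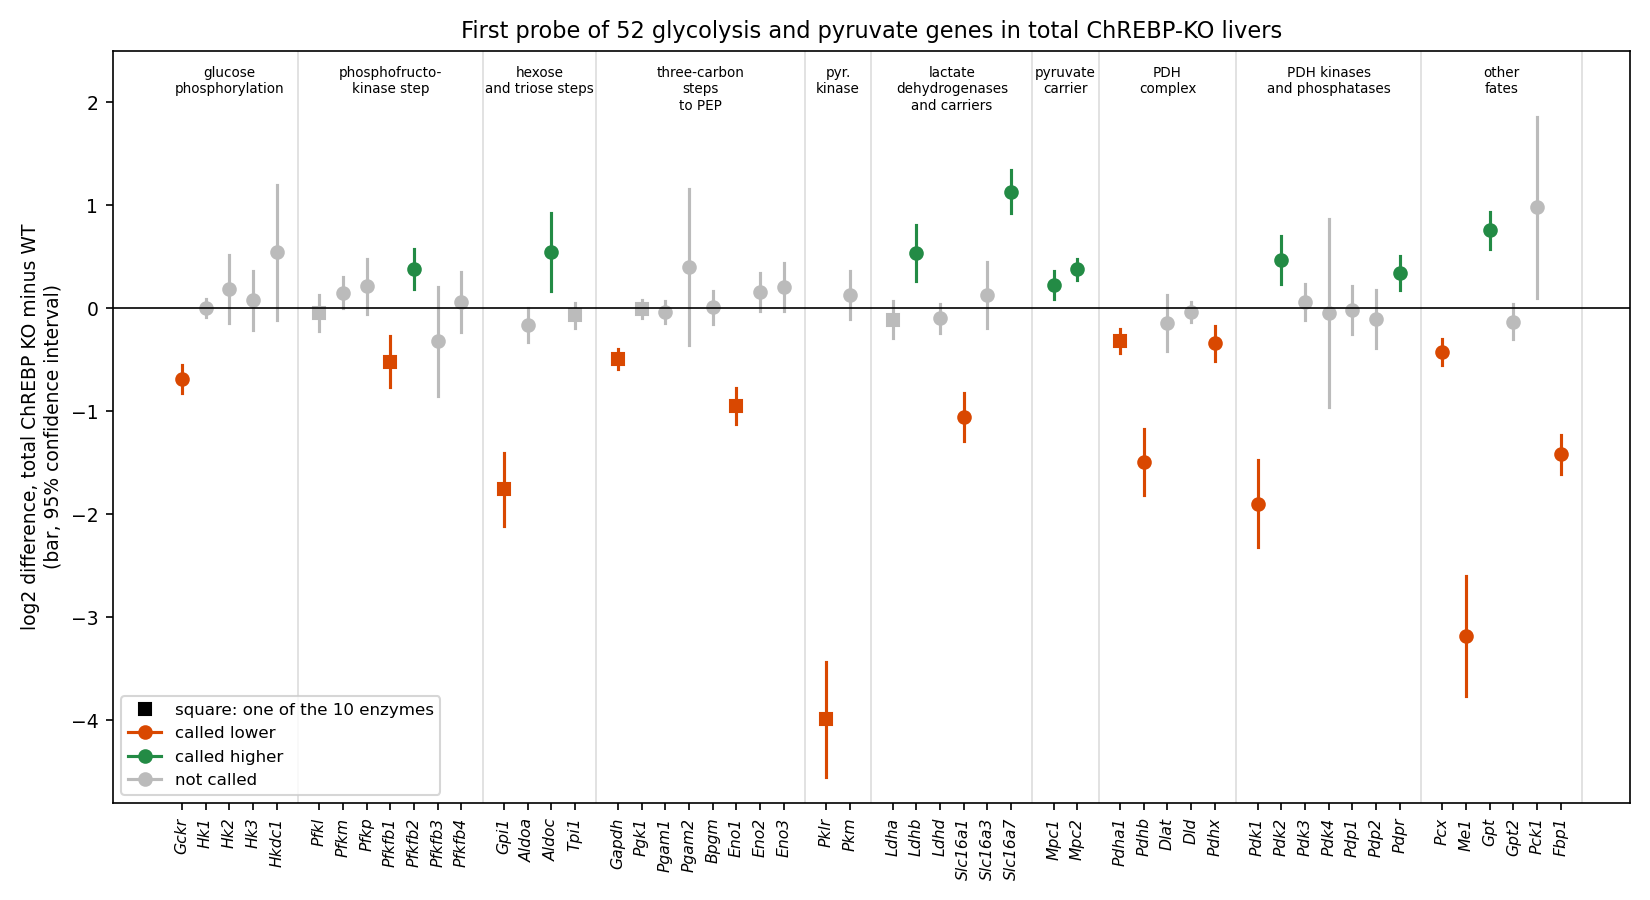
Log2 difference of total ChREBP-KO mice from WT littermates (y axis, with the 95% confidence interval) for the first probe of 52 genes of glycolysis and pyruvate metabolism, grouped by step (x axis). Differences past -1 belong to Pklr, Me1, Pdk1, Gpi1, Pdhb, Fbp1 and Slc16a1, and Slc16a7 is the one gene past 1.

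The counts by step, here and in the paragraphs that follow, stand beside 14.8% of all genes called lower and 14.4% called higher. In lists this short, 1 called gene does not set a step apart. At glucose phosphorylation, the entry to the pathway, 1 of 5 genes was lower, Gckr, at -0.69 (limma adjusted p = 3.00e-09) without overlap, and 0 were higher, also at an unadjusted p under 0.05. The hexokinases Hk1, Hk2, Hk3 and Hkdc1 were not called. At the phosphofructokinase step Pfkfb1 was lower and Pfkfb2, another form of the bifunctional enzyme, was higher by 0.38 (adjusted p = 0.00253), out of 7 genes. The muscle and platelet subunits, Pfkm and Pfkp, gave 0.15 and 0.22 and were not called, nor were Pfkfb3 (-0.32) and Pfkfb4 (0.06).

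Among hexose and triose enzymes 1 of 4 was lower, Gpi1, and 1 was higher, Aldoc, the brain form of aldolase, by 0.54 (limma adjusted p = 0.0262). The mean of Aldoc in the knockout, 12.01 (SD 0.65), was close to that of ChREBPbeta_WT mice, 11.94. Its WT littermates differed from those mice by -0.48 (adjusted p = 0.0611), and its interaction was not called (adjusted p = 0.095). From glyceraldehyde 3-phosphate to phosphoenolpyruvate 2 of 8 genes were lower, Gapdh and Eno1, and 0 were higher, also at an unadjusted p under 0.05. The other enolases, Eno2 (0.16) and Eno3 (0.21), were not called. The other pyruvate kinase gene, Pkm, which is expressed outside the hepatocyte, was not called either, at 0.13 (SE 0.11, adjusted p = 0.427).

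For lactate, 1 of 6 genes was lower and 2 were higher. Slc16a1, the monocarboxylate carrier MCT1 (probe on chromosome 3, 104460941 to 104461000, mm9), ran from 10.92 to 11.41 in total ChREBP-KO mice and from 11.82 to 12.54 in WT littermates, a difference of -1.05 (SE 0.11, limma adjusted p = 2.02e-08). Slc16a7, the carrier MCT2 (chromosome 10, 124664842 to 124664901), went the other way, with 11.06 to 11.88 against 9.98 to 10.62 and a difference of 1.13 (SE 0.10, adjusted p = 6.18e-10). Neither carrier overlapped between the groups. Of the other Slc16a7 probes, those called gave 0.43, 0.70 and 1.08, and another was not called at 0.07. Ldhb, the heart-type subunit of lactate dehydrogenase, was higher by 0.53 (adjusted p = 0.00265) without overlap, and Ldhd was not called (-0.10). Ldhb in the knockout (8.46 to 9.42) did overlap with ChREBPbeta_WT mice (8.05 to 9.09). For Ldhb the WT groups differed by -0.29 and were not called (adjusted p = 0.115), and its interaction was called at 0.62 (adjusted p = 0.0196). Between the WT groups Slc16a1 was higher by 0.43 and Slc16a7 lower by -0.35 in the total ChREBP-KO line (adjusted p = 0.006 and 0.0139).

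On the mitochondrial side the carrier and the enzyme complex differed in direction. Both subunits of the mitochondrial pyruvate carrier were higher, Mpc1 by 0.23 (limma adjusted p = 0.00846) and Mpc2 by 0.38 (adjusted p = 8.64e-07, no overlap). The mean of Mpc1 in the knockout, 15.05, was close to that of ChREBPbeta_WT mice, 15.04, its WT littermates were lower than those mice by -0.22 (adjusted p = 0.0153), and its interaction was not called (adjusted p = 0.674). Of 5 genes of the pyruvate dehydrogenase complex 3 were lower, and the largest difference was that of Pdhb, the beta subunit that partners Pdha1. Pdhb (chromosome 14, 8998548 to 8998607) ran from 13.77 to 14.25 in total ChREBP-KO mice and from 14.71 to 16.23 in WT littermates. The difference was -1.49 (SE 0.16, adjusted p = 1.40e-08), and its other probes gave -1.85 and -1.82. Pdhx, a structural subunit, was lower by -0.34 (adjusted p = 0.00205), and Dlat (-0.14) and Dld (-0.04) were not called. Pdhb was also higher in WT mice of the total ChREBP-KO line than in those of the other line, by 0.69 (adjusted p = 0.00204).

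Pyruvate dehydrogenase is switched off by kinases and switched on by phosphatases, and of 7 genes in that list 1 was lower and 2 were higher. Pdk1 (chromosome 2, 71739926 to 71739985) ran from 9.91 to 10.32 in total ChREBP-KO mice and from 11.14 to 12.90 in WT littermates, a difference of -1.89 (SE 0.21, limma adjusted p = 2.59e-08) without overlap. Of its other probes, those called gave -1.15, -1.55 and -1.84, and another was not called at -0.11. Pdk2, the kinase abundant in liver, was higher by 0.47 (adjusted p = 0.00226), and Pdpr, the regulatory subunit of the phosphatase, by 0.34 (adjusted p = 0.00145). For Pdk2 the knockout mean of 11.37 was close to that of ChREBPbeta_WT mice, 11.34, the WT groups differed by -0.44 (adjusted p = 0.00572), and the interaction was not called (adjusted p = 0.141). Pdpr differed between the WT groups by -0.28 (adjusted p = 0.0123). Pdk4, which is induced by fasting, was not called at -0.04 with an SE of 0.45.

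Other fates of pyruvate held 3 lower genes and 1 higher gene out of 6. Me1, the cytosolic malic enzyme, which returns pyruvate from malate and supplies NADPH, came nearest to Pklr in size. It ran from 11.11 to 12.49 in total ChREBP-KO mice and from 13.65 to 16.04 in WT littermates (chromosome 9, 86475077 to 86475136), a difference of -3.18 (SE 0.29, limma adjusted p = 6.79e-10), and the other probe gave -3.14. Fbp1, the fructose bisphosphatase of gluconeogenesis (chromosome 13, 62966175 to 62966234), ran from 15.42 to 15.93 against 16.84 to 17.51, a difference of -1.42 (SE 0.094, adjusted p = 1.72e-12). Neither overlapped. Pcx, pyruvate carboxylase, was lower by -0.42 (adjusted p = 4.17e-06), Gpt, an alanine aminotransferase, was higher by 0.76 (adjusted p = 1.28e-07), and Pck1, phosphoenolpyruvate carboxykinase, was not called at 0.98 with an SE of 0.43. Between the WT groups Pcx was lower by -0.19 and Gpt by -0.29 in the total ChREBP-KO line (adjusted p = 0.0247 and 0.0206).

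The genes whose signal followed Pklr most closely were then listed, by Pearson correlation with its probe over the 31 arrays. They were Hcn3 (0.995), Gm35986 (0.991), Khk (0.987), Tkfc (0.985) and Pygl (0.982). These values are dominated by the 7 low arrays of the total ChREBP-KO mice and are given as a description. When each value was taken relative to the mean of its group, the closest were Hcn3 (0.961), Khk (0.950), Gm35986 (0.935), Lrrc28 (0.918) and Bri3 (0.913). Khk, ketohexokinase, and Tkfc, triokinase, belong to fructose breakdown, and Pygl is liver glycogen phosphorylase. The Hcn3 probe (chromosome 3, 88950072 to 88950131, minus strand, mm9) begins 647 bases beyond the end of the Pklr probe, on the opposite strand, and differed by -4.27 in mice lacking both isoforms (limma adjusted p = 2.05e-13).

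Within the groups other than total ChREBP-KO mice, mice with more Pklr also had more Gpi1, by Pearson's r. Whether the correlations differ between groups was not tested. Since total ChREBP-KO mice form a cluster of their own, correlations were taken within groups, 36 in all over 9 genes and 4 groups, with exact two-sided permutation p-values and adjustment over the 36. For Gpi1, Pearson's r with Pklr was 0.925 in ChREBPβ-deficient mice (n = 8, exact p = 0.000174, adjusted 0.00357, Spearman's rho 0.952, exact p = 0.00114, adjusted 0.0137). In their WT littermates r was 0.881 (n = 8, exact p = 0.00402, adjusted 0.0289, rho 0.690, exact p = 0.0694, adjusted 0.192). In ChREBPtotal_WT mice r was 0.958 (n = 8, exact p = 0.000546, adjusted 0.00655, rho 0.881, exact p = 0.00724, adjusted 0.0521). Without the 2 mice farthest from the median of Pklr these became 0.902, 0.699 and 0.894. In total ChREBP-KO mice r was -0.904 (n = 7, exact p = 0.00972, adjusted 0.05, rho -0.786, exact p = 0.048, adjusted 0.157), and it was -0.440 without the 2 farthest mice, so it rests on them.

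Ldha had a negative correlation with Pklr in each group, which passed by Pearson's r in the knockout groups. Pearson's r was -0.927 in ChREBPβ-deficient mice (n = 8, exact p = 0.00154, adjusted 0.0138, rho -0.838, exact p = 0.0131, adjusted 0.0786) and -0.898 in total ChREBP-KO mice (n = 7, exact p = 0.000198, adjusted 0.00357, rho -1, exact p = 0.000397, adjusted 0.0137). It was -0.538 in ChREBPbeta_WT mice (n = 8, exact p = 0.171, adjusted 0.366, rho -0.643, exact p = 0.0962, adjusted 0.247) and -0.830 in ChREBPtotal_WT mice (n = 8, exact p = 0.0153, adjusted 0.061, rho -0.786, exact p = 0.0279, adjusted 0.126), which did not pass after adjustment. Without the 2 farthest mice these became -0.915, -0.962, -0.744 and -0.675. In the total ChREBP-KO mice the whole range of Pklr was 0.61 log2 units, and the scanner software found its spot on 4 of the 7 arrays. Whether background sets the order of these mice was not tested. Eno1 followed Pklr in ChREBPβ-deficient mice (r = 0.833, n = 8, exact p = 0.006, adjusted 0.036, rho 0.952, exact p = 0.00114, adjusted 0.0137, and r = 0.705 without the 2 farthest mice). Gapdh passed there by rank alone (rho 0.922, n = 8, exact p = 0.00258, adjusted 0.0232). The other relations, those of Pfkl, Pgk1, Tpi1, Pfkfb1 and Pdha1 and the remaining ones of Gapdh and Eno1, did not pass after adjustment by either measure. The scan days hold 3 to 5 mice of a group, too few for a correlation within days.

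**Figure D4:**
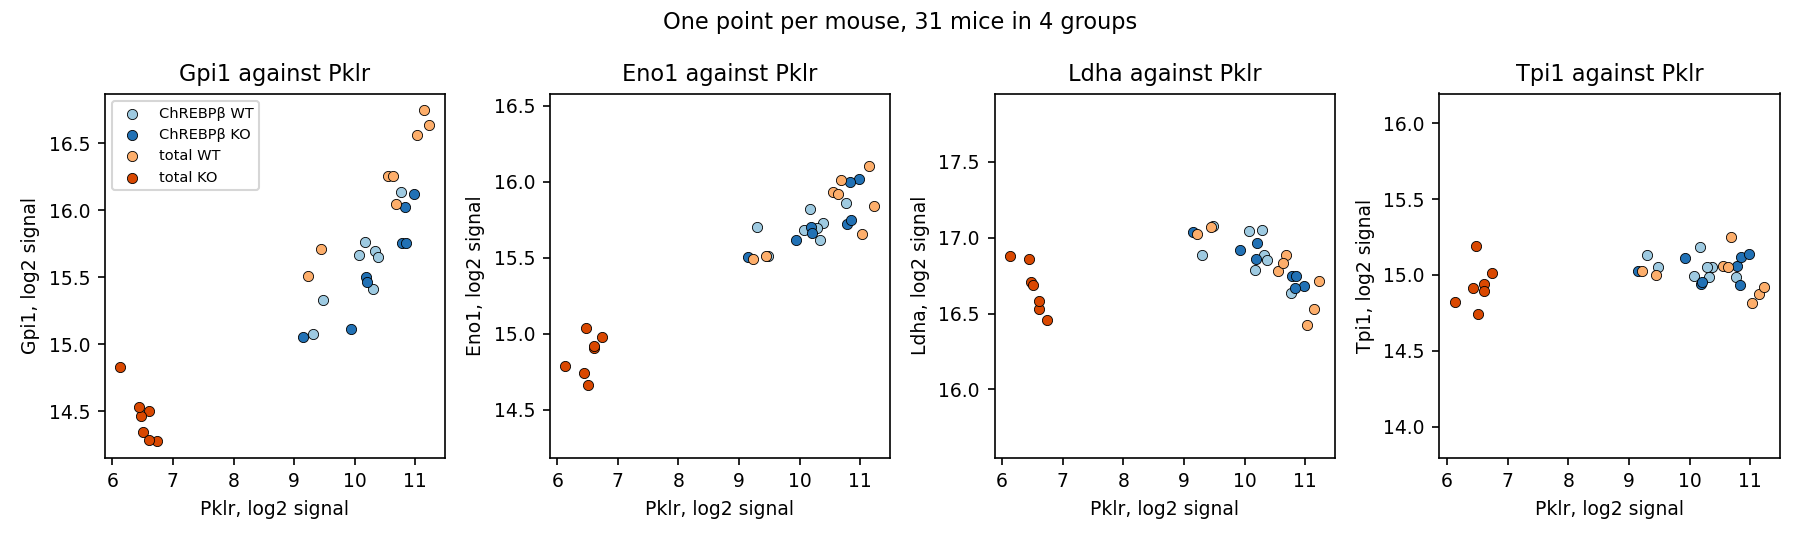
Log2 signal of Gpi1, Eno1, Ldha and Tpi1 (y axes) against that of Pklr (x axes), with a point for each of the 31 mice and a color for each of the 4 groups. Total ChREBP-KO mice form a separate cluster between 6.13 and 6.74 on the Pklr axis, and within each of the other groups Gpi1 is higher in mice with more Pklr.

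Markers of other tissues stood out on some arrays, in both lines. The summed log2 signal of exocrine pancreas markers (3 of 6 genes tested) ran from 9.84 to 13.98 in WT littermates, where replicates 2, 7 and 8 were highest, and from 9.97 to 11.61 in total ChREBP-KO mice, and was at most 9.97 in the other line. Of these markers Cel and Ctrb1, 2 in all, were lower in the knockout. Summed skeletal muscle markers (4 of 5 tested) reached 12.62 in total ChREBP-KO replicate 6 and were at most 8.28 on the other arrays. Adipocyte markers (4 of 5 tested) reached 13.10 in that replicate. They summed to 9.40 to 12.68 in ChREBPβ-deficient mice and 8.90 to 10.79 in their WT littermates. Among them Cfd differed by 2.04 in ChREBPβ-deficient mice (limma adjusted p = 0.992), and Retn, Lep and Plin1 by 0.11, -0.13 and -0.08. Bile duct markers (4 of 4) ran up to 11.51 in total ChREBP-KO mice and up to 10.21 in WT littermates, with Epcam called higher. Red blood cell markers (4 of 5 tested) summed to 16.54 to 17.55 in the total ChREBP-KO line and 15.50 to 16.59 in the other, with Alas2 called higher in total ChREBP-KO mice by 0.34 (adjusted p = 0.0183), and Pklr is also expressed in red cells. Immune markers (5 of 5, with Ptprc and Cd74 called higher) summed to 13.65 to 14.39 in total ChREBP-KO mice and 13.57 to 14.23 in WT littermates, and endothelial markers (4 of 4, none called) to 12.21 to 12.63 and 12.10 to 12.58. The part of these markers in the differences was not tested beyond leaving out arrays. Without WT replicates 2, 7 and 8 and total ChREBP-KO replicate 6 the differences were -4.20 for Pklr, -1.86 for Gpi1 and -0.93 for Eno1. They were -0.48 for Gapdh, -0.46 for Pfkfb1 and -0.32 for Pdha1, and all of these differences were still past the threshold. Without those arrays 21 of 29 probes were called lower, and the share of all probes called lower was not counted.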

How the data were processed

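The authors deposited scanner files of Agilent Feature Extraction 10.10.1.1 (per the labels) for one-color SurePrint G3 Mouse GE v2 arrays, which hold a raw intensity for each spot. A further file holds log2 values that the authors quantile normalized after a filter on spot weights, taking the median of replicated probes. Here the log2 of the median intensity was used without background subtraction. A spot was kept if it was found, positive and well above background in 26 or more arrays, or in 6 or more of 1 group. Values were then quantile normalized across arrays and reduced to the median per probe name. Before normalization 34131 to 38612 spots passed per array, and array correlations were 0.980 to 0.999. Values differed from the deposited log2 values by -0.03 to 0.03 (1st to 99th percentile).

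The 4 groups entered a single linear model in limma 3.58.1 (R 4.3.3, data.table version 1.17.8; lmFit, contrasts.fit, eBayes). Benjamini-Hochberg adjustment covered all 36059 probes, and an adjusted p under 0.05 was a call. The model was tested on simulated data. Figures were drawn with matplotlib 3.10.9. Gene names and mm9 positions are those of the array design, and exons were not assigned. Promoters came from RefSeq (GRCm38.p6), and all 10 genes matched by symbol.

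The 10 genes, the pathway and marker lists and the tests were chosen with earlier results of these data known. Of the pathway lists 2 genes are not reported here. Named were all probes of the 10 genes, Mlxipl, called pathway genes with a log2 difference of at least 1 in size, isozymes of the 10 genes, and the 5 genes most like Pklr by each measure. Other pathway genes named, and the called markers, were chosen after their values were seen. The alternatives were other signals, scalings and background correction (75th percentile, normexp with offset 50), the deposited values, other filters, slide, scan day or replicate number as a block, lines fitted alone, eBayes with trend, the Mann-Whitney test, a 1.5-fold limit and each array left out. Single scan days and leaving out 4 arrays with high markers were added after seeing the data.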

Additional observations from a re-analysis of the deposited data

Results flagged for a closer look

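In a test of the most extreme mouse of each group, over 116 groups of probes and genotypes, 4 mice stood apart from the rest of their group, where chance would mark about 1 in 20. They were ChREBPbeta_WT replicate 6 at the second Pfkl probe (log2 signal 6.878), ChREBPbeta_KO replicate 5 at the first Gapdh probe (17.91), ChREBPtotal_KO replicate 8 at the Eno1 probe nearest the 5′ end (7.036) and ChREBPbeta_WT replicate 7 at the first Pfkfb1 probe (12.6).

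The effect of total ChREBP deficiency differed from that of ChREBPβ deficiency, by the interaction in limma, for 6 of the 10 genes. Of all 23968 genes, by first probes, 1978 had a more negative and 1700 a more positive difference at the same threshold. The differences between the effects, on the log2 scale, were -4.255 for Pklr, -1.762 for Gpi1, -0.9917 for Eno1, -0.6737 for Pfkfb1, -0.4684 for Gapdh and -0.4005 for Pdha1. Among the other pathway genes named for a difference of at least 1, they were -3.47 for Me1, -2.124 for Pdk1, -1.637 for Pdhb, -1.374 for Fbp1, -1.093 for Slc16a1 and 0.8402 for Slc16a7. The lines cannot be told apart from the deficiencies in these values.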

How the results depend on the processing

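Under every alternative but the 1.5-fold limit, the first probes of Pklr, Gpi1, Eno1 and Gapdh kept their lower call in the knockout of both isoforms. The exception was that Pklr could not be tested where every array had to pass the filter. First-probe differences were not read under the 1.5-fold limit, which the first Gapdh probe, at 1.41-fold lower, does not reach. Pklr ranged from -4.33 to -3.55 and Gpi1 from -1.92 to -1.58. The count of probes called lower was 13 to 21, and that in ChREBPβ-deficient mice stayed at 0. Under the Mann-Whitney test the count in ChREBPβ-deficient mice could not have been other than 0. The share of all probes called was not counted under each alternative. Of 938 values of first-probe differences, 893 kept their sign and side of the threshold, 2 lost the call (Pfkfb1 at -0.19 and Pdha1 at -0.25, scan day 2), 1 gained it (Tpi1 at -0.27, scan day 2) and 42 changed sign, none of them called. The cause was not tested.

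The count of probes called between the WT groups was 0 with slide as a fixed block, 1 by the Mann-Whitney test and 2 on each scan day, and pathway genes numbered 9 lower and 2 higher with the 1.5-fold limit and 5 higher on scan day 2. A group has 3 to 5 arrays on a day. When arrays were left out, a single one each time, the counts were 18 to 21 probes lower, 18 to 19 for the difference between deficiencies, 5 to 6 between the WT groups, 14 pathway genes lower and 8 to 10 higher.

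In total ChREBP-KO mice Pfkl was 0.0047 with the processed signal, 0.0043 on scan day 2 and -0.0783 to 0.0032 with arrays left out. Pgk1 was 0.026 with the deposited values, 0.028 on scan day 1, 0.030 without the arrays high in markers and -0.0215 to 0.0109 with arrays left out, and Tpi1 was 0.11 on scan day 1. In ChREBPβ-deficient mice Gpi1 was -0.042 with the processed signal, -0.050 with 75th percentile scaling of the median signal, -0.013 with the deposited values, -0.059 with slide as a fixed block, -0.26 on scan day 1 and -0.0671 to 0.0860 with arrays left out. Eno1 was -0.0093, -0.0051 and -0.12 with the processed signal, the scaled median signal and scan day 1. Pgk1 was 0.00017 with normexp, 0.0018 and 0.023 with slide as a random and a fixed block, 0.013 on scan day 1 and -0.0139 to 0.0210 with arrays left out. Tpi1 was 0.012 with slide as a fixed block and 0.030 on scan day 1, when Pklr was -0.21, Pfkl 0.021, Ldha 0.043 and Pdha1 -0.011.

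Replicate numbers were not taken as pairs, since the labels tie them to nothing shared and not every pair correlated over 0.1. Deviations of same-numbered mice correlated at -0.156 to 0.533 in the ChREBPβ line, where 6 of 8 pairs were over 0.1 and 4 of 8 mice correlated best with their own number, a hint from the data and not from the design. In the other line they correlated at -0.215 to 0.241, 2 of 7 pairs were over 0.1 and 1 of 7 mice correlated best with its own number. The replicate block gave each replicate number an effect shared by both lines. It therefore did not model pairs within a line and cannot say what such pairing would change. With this block 19 probes were called lower, 0 higher, 0 in ChREBPβ-deficient mice, 18 for the difference between deficiencies and 6 between the WT groups. Pathway genes numbered 14 lower and 9 higher, so the block as fitted moved no count.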
